A study of Arabidopsis thaliana with 18 samples.

Results

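UGT76B1 (AT3G11340, probe set 256252_at) is 1 gene, read by 1 of the 22746 probe sets that remained on the array after its controls were left out. It was looked up by its locus in the annotation of the array. The gene had been chosen by its own signal, which was high in some salicylic acid arrays of this same series, so its levels, its ranks and its likeness to other probe sets are given here as a description, with no test. The series measured total RNA of Arabidopsis thaliana accession Est on 18 Affymetrix ATH1 arrays, 1 biotin-labelled sample per array. In 9 arrays the plants had received 0.30 mM SA (salicylic acid) in 0.02% silwet, a surfactant used to spread solutions over plant surfaces, and in the other 9 arrays 0.02% silwet alone, so that both treatments carried the surfactant. The sources used here give neither tissue nor plant age nor harvest time. They also do not say whether the arrays of a treatment are of separate plants, so the p-values reflect only the spread among these samples, possibly technical.

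The titles number the arrays from 37 to 54 and give each a replicate number of 1, 2 or 3, and in each treatment this numbering runs through 1, 2 and 3 a total of 3 times. The 3 pairs compared were SA titles 46 to 48 with silwet titles 37 to 39, SA titles 49 to 51 with silwet titles 40 to 42, and SA titles 52 to 54 with silwet titles 43 to 45. The labels do not state this pairing or what separates the runs. Each title also holds a second number, whose meaning is not stated. It falls into separate ranges for replicate numbers 1, 2 and 3. In its order, each silwet array is directly followed by the SA array of the same pair and replicate number. They are called pair 1, pair 2 and pair 3 by title number, which gives them no order in time.

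UGT76B1 encodes a glucosyltransferase, an enzyme that joins glucose from UDP-glucose to a small acceptor molecule. Its known acceptors are salicylic acid, the defence hormone, isoleucic acid, a hydroxy acid related to the amino acid isoleucine, and N-hydroxypipecolic acid, a signal of systemic acquired resistance. Glucosylation generally inactivates such a molecule, and plants that lack UGT76B1 are known for raised salicylic acid defences. Salicylic acid itself is perceived by NPR proteins that act with TGA transcription factors.

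In pair 1 UGT76B1 had signals of 1440, 1776 and 1653 with SA (titles 46, 47 and 48), against 287.6, 210.6 and 201.4 with silwet (titles 37, 38 and 39), in MAS5 signal units. Each SA array read at least 5 times the highest silwet array of the pair, and the 2 groups did not overlap. In pair 2 the signals were 83.0, 118 and 192 with SA (titles 49, 50 and 51), against 156, 23.8 and 86.5 with silwet (titles 40, 41 and 42). Here the groups overlapped, and title 41 was the lowest of the 6 arrays. In pair 3 the signals were 59.7, 13.6 and 18.5 with SA (titles 52, 53 and 54), against 34.8, 27.0 and 51.4 with silwet (titles 43, 44 and 45). The groups overlapped again, with SA titles 53 and 54 below all 3 silwet arrays and SA title 52 above them.

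**Figure D1:**
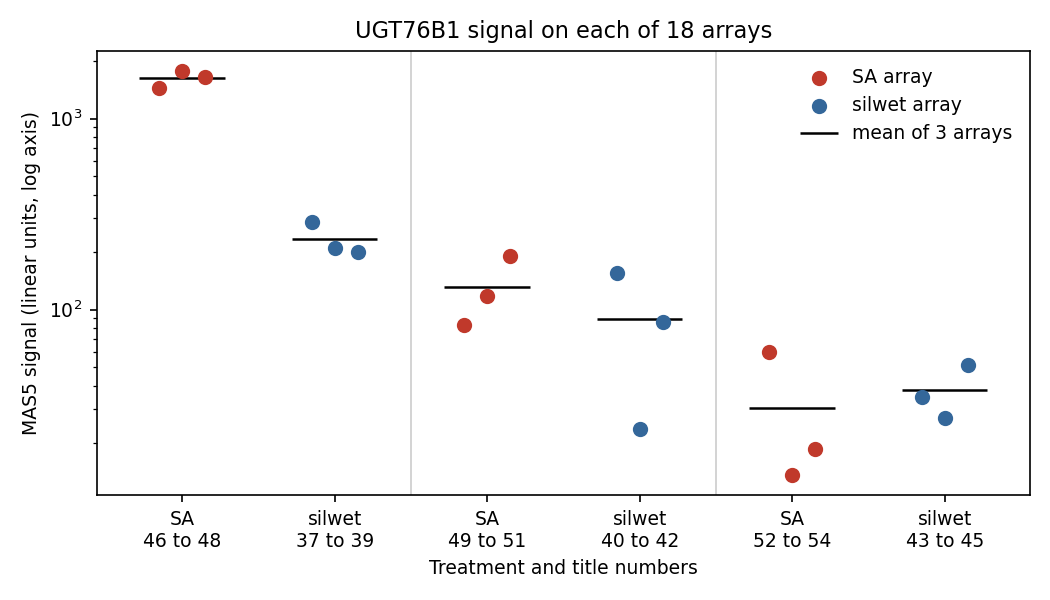
MAS5 signal of UGT76B1 on a log axis for each of the 18 arrays (points), with the mean of each group of 3 (black lines), by treatment and title numbers, the 3 pairs separated by grey lines. SA titles 46 to 48 sit between 1440 and 1776, above the other 15 arrays, while in the other pairs the treatments overlap.

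On the log2(signal + 16) scale, the mean level in pair 1 was 10.67 ± 0.15 with SA and 7.94 ± 0.26 with silwet (SD, n = 3 each). The difference was 2.73, or 6.63-fold on this scale, and its standard error from these 6 arrays was 0.18. limma, which shares one variance over all 6 groups of arrays, gave a standard error of 0.42 for each pair, since the gene varied more in the other groups. In pair 2 the levels were 7.13 ± 0.54 with SA and 6.47 ± 1.07 with silwet, and the difference of 0.65 had a standard error of 0.69 from its own arrays. In pair 3 they were 5.41 ± 0.73 with SA and 5.72 ± 0.33 with silwet, and the difference of -0.31 had a standard error of 0.46 from its own arrays. Both differences were smaller than the standard error from their own arrays, and that of pair 2 was larger than the 0.42 of limma.

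Arrays with the same replicate number can be set side by side within a pair, although the labels do not say that such arrays belong together. Only the order of the second number in the titles puts them next to each other. In pair 1 the SA array exceeded the silwet array by 2.26, 2.98 and 2.94 for numbers 1, 2 and 3, so all 3 differences had one sign. In pair 2 the differences were -0.80, 1.75 and 1.02, and in pair 3 0.58, -0.54 and -0.97. Leaving out replicate number 1 gave 1.38 in pair 2 and -0.75 in pair 3. Leaving out number 2 gave 0.11 in pair 2, and leaving out number 3 gave 0.02 in pair 3.

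The 6 group means fell in the order SA titles 46 to 48, silwet 37 to 39, SA 49 to 51, silwet 40 to 42, silwet 43 to 45 and SA 52 to 54. The highest group did not overlap the next, whose top array was 8.25 against a lowest SA array of 10.51. Silwet titles 37 to 39, at 7.76 to 8.25, lay just above SA titles 49 to 51, at 6.63 to 7.70, with means 0.82 apart. The remaining neighbours overlapped in their levels. Silwet titles 37 to 39 also exceeded silwet titles 43 to 45, at 5.43 to 6.08, by 2.22, so the surfactant arrays alone covered a wide range.

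The place of UGT76B1 among all probe sets on an array moved with these levels. Counted from the brightest of 22746, it stood at 250, 187 and 200 on SA titles 46, 47 and 48, against 2544, 3417 and 3638 on silwet titles 37, 38 and 39. On SA titles 49, 50 and 51 it stood at 7322, 5559 and 3676, against 4445, 11942 and 6907 on silwet titles 40, 41 and 42. On SA titles 52, 53 and 54 it stood at 8386, 14890 and 13470, against 11441, 12403 and 9454 on silwet titles 43, 44 and 45. The gene thus ranged from among the brightest transcripts to below the middle of the array, where its signal was 0.43 times the array median on SA title 53. The files give no detection calls, so whether these dim readings lie above background is unknown. The standard deviation over the 18 arrays was 1.88, in place 3 from the largest of the 17059 probe sets tested, whose median was 0.27.

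Among the differences of the 17059 tested probe sets, UGT76B1 stood in place 2 from the top in pair 1, and in place 1 of the 9497 with 1 named gene. The probe set above it, 245035_at, is unnamed here and differed by 3.09, and the next one below, 249890_at, also unnamed, by 2.22. Ranked by limma's moderated t, which divides each difference by its error, the gene stood in place 23. In pair 2 it stood in place 136 by difference (62 of the named) and 1657 by moderated t. In pair 3 it stood in place 14704, among the lower 13.8% of differences, and 11473 by moderated t. Place 2 in pair 1 held under each alternative scale tried (offsets of 1 and 64, quantile normalization) and without each replicate number. In pair 2 the place ran from 3 without replicate number 1 to 5559 without number 2, and in pair 3 from 7098 without number 3 to 16998 without number 1.

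**Figure D2:**
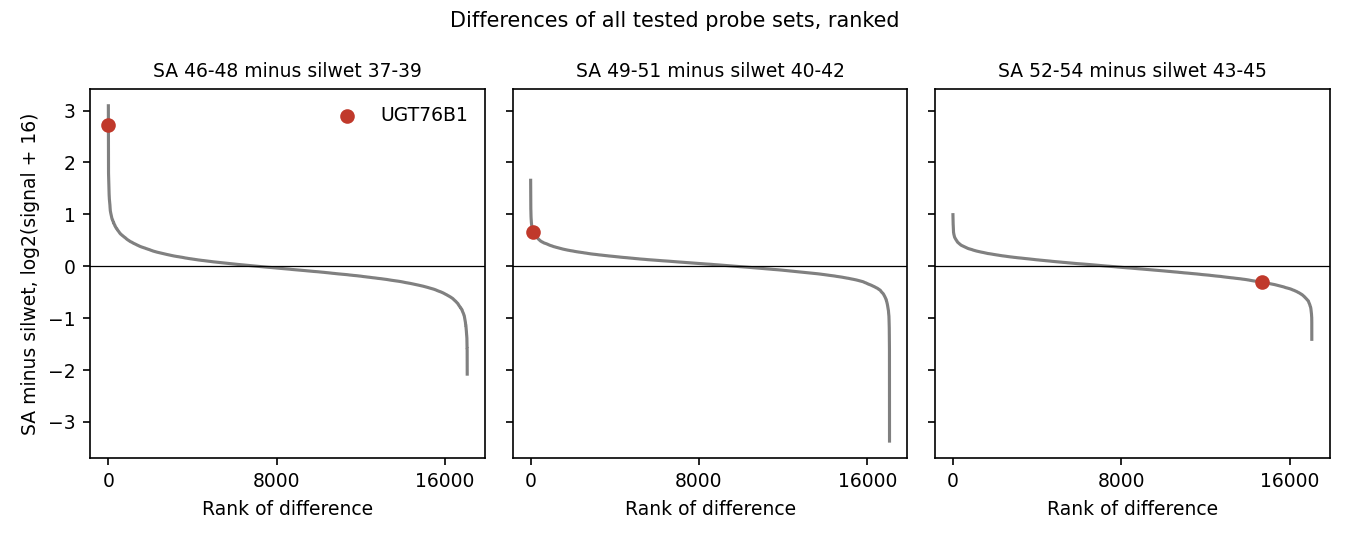
Difference SA minus silwet on the log2(signal + 16) scale for each of 17059 probe sets, ranked from highest to lowest (grey line) in the 3 pairs, with UGT76B1 as a red point. The gene lies at 2.73 near the upper end in pair 1, at 0.65 in pair 2 and at -0.31, below 0, in pair 3.

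As a frame for the genes that follow, limma without a replicate block called 517 probe sets in pair 1 (3.03% of those tested, Benjamini-Hochberg adjusted p under 0.05). Adjusted p-values below are from this fit unless another setting is named. It called 269 higher (1.58%) and 248 lower (1.45%) with SA. The split moved with the scale, to 191 higher and 289 lower at an offset of 1, 382 and 193 at an offset of 64, and 350 and 211 after quantile normalization. Without replicate number 2 only 3 probe sets were called, 15 without number 3, and 797 without number 1 (319 higher and 478 lower). A replicate block raised the calls of pair 1 to 1147 (6.72%), 559 higher (3.28%) and 588 lower (3.45%). In pairs 2 and 3 limma called 0 (0%), although 1115 and 1164 probe sets had a raw p under 0.05, and with the block it again called 0 in both. A block of replicate number within each pair, added after seeing the data, called 8 in pair 2. The interaction of treatment and pair, which asks whether the 3 differences vary, was called at 427 probe sets (2.5%). All arrays had been scaled to one mean signal, between 100.008 and 100.01 after trimming, and median signals ran from 27.4 to 35.7. The log2 ratio of 3' to 5' control signal, a sign of RNA quality, spanned -0.30 to 0.87 for GAPDH, 1.10 to 2.68 for actin and 1.27 to 2.30 for ubiquitin. Over the 18 arrays these ratios had a Pearson r with UGT76B1 of -0.47, -0.17 and -0.67, and their part in its level was not tested. No tissue is labelled. Of 8 leaf, 6 root and 6 flower and seed markers listed, 2, 3 and 0 are named on the array. The 2 leaf markers were bright, with mean levels of 10.96 for PRK, an enzyme of the Calvin cycle, and 10.55 for LHCB4.2, a light-harvesting protein. The 3 measured root markers EXPA18, EXPA7 and XTH20 read 4.70, 4.46 and 4.63, near the floor of 4 that the offset sets. So few markers do not settle the tissue. PRK fell in pair 1 (0 of 2 leaf markers rose and 1 fell), with a difference of -0.57 (limma adjusted p = 0.0220), a call lost without replicate number 2 (adjusted p = 0.568) and without number 3 (0.223), and its part in the level of UGT76B1 was not tested.

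The closest followers of UGT76B1 over the 18 arrays shared its high point in SA titles 46 to 48 and its next highest mean in silwet titles 37 to 39. They were ranked by Pearson r of the log2(signal + 16) levels, a description over 18 arrays that share runs and treatments. The 20 highest had r from 0.907 to 0.935, where the median over all tested probe sets was -0.07 and 436 of them (2.56%) exceeded 0.8. The place of the limit means little, since the probe set in place 21 had an r of 0.905. Of the 20, 11 have 1 named gene and 9 are unnamed here. The 11 were AT2G20560, AT2G41640, AT1G05575, AT1G61660, AT5G47730, AT1G55530, AT1G69250, Fes1A, AT3G09010, AT1G32120 and GRX480. Fes1A assists the chaperone Hsp70 in exchanging its nucleotide, and GRX480 is a glutaredoxin that binds TGA factors.

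AT2G20560 had the highest r, 0.935. Its levels were 6.40 ± 0.28, 5.22 ± 0.03 and 4.96 ± 0.19 in SA titles 46 to 48, 49 to 51 and 52 to 54, against 5.49 ± 0.26, 4.99 ± 0.13 and 4.97 ± 0.18 in silwet titles 37 to 39, 40 to 42 and 43 to 45 (SD, n = 3 each). Fes1A (r = 0.915) had 9.33 ± 0.26, 6.94 ± 0.21 and 7.03 ± 0.12 in the SA groups, against 7.96 ± 0.41, 7.03 ± 0.12 and 6.91 ± 0.04 in the silwet groups. GRX480 (r = 0.910) had 9.64 ± 0.22, 7.34 ± 0.33 and 7.27 ± 0.41 in the SA groups, against 8.36 ± 0.36, 7.84 ± 0.20 and 7.43 ± 0.11 in the silwet groups. These 3 genes were alike in being highest in SA titles 46 to 48. Fes1A stayed near 7 in all 4 groups of pairs 2 and 3, where UGT76B1 was lower in pair 3 than in pair 2 in both treatments.

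In 18 of the 20 followers all 3 arrays of SA titles 46 to 48 lay above the other 15 arrays, a pattern that 5.55% of the other tested probe sets had. In all 20 the mean of silwet titles 37 to 39 exceeded the means of the 4 groups of pairs 2 and 3, as it did in 30.7% of all others. The rule that chose the followers favours both patterns. Of the 20, 13 had an adjusted p under 0.05 in pair 1, all higher with SA, beside the 1.58% given above, and since likeness to a gene that is high there selects for this, nothing is read from it. Their differences ran from 0.32 to 2.21 in pair 1, from -0.50 to 0.23 in pair 2 and from -0.47 to 0.14 in pair 3.

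**Figure D3:**
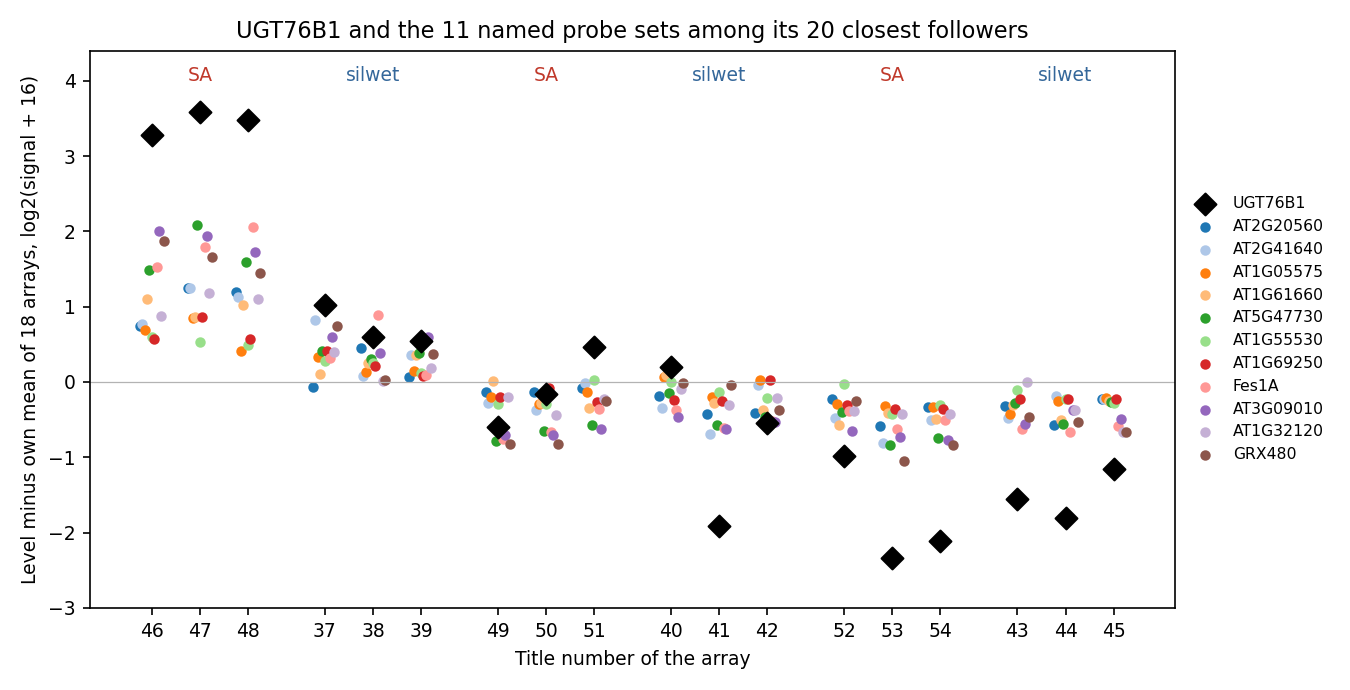
Level minus its own mean over 18 arrays, on the log2(signal + 16) scale, for UGT76B1 (black diamonds) and the 11 named genes among its 20 closest followers (coloured points), for each array by title number and treatment. Each gene but AT2G41640, which overlaps silwet title 37, reads higher on each of SA titles 46 to 48 than on any other array, and UGT76B1 spreads over 5.92 log2 units, more than any follower drawn.

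The likeness was lower without the 3 arrays of SA titles 46 to 48. Over the other 15 arrays the 20 followers had r between 0.650 and 0.840, with a median of 0.737, and 4 of the 20 exceeded 0.8, as did 7 of all tested probe sets. Only 6 of the 20 were then among the 20 highest. Deviations from the 6 group means, which leave out all differences between groups, gave the followers a median r of 0.386. By Spearman's rank correlation 7 of the 20 remained among the 20 highest.

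The treatments can also be read apart, since they share no array. In the 9 SA arrays the 20 followers had r from 0.927 to 0.977, and in the 9 silwet arrays from 0.577 to 0.933, all above 0. Of the 20 probe sets with the highest r in the SA arrays alone, 18 had an r above 0 in the silwet arrays, with a median of 0.569 and 3 (15%) over 0.8, where the median of all tested probe sets was 0.03 and 1.01% exceeded 0.8. In the other direction, of the 20 with the highest r in the silwet arrays alone, 15 (75.0%) exceeded 0.8 in the SA arrays, against 8.59% of all tested. UGT76B1 had the same order of its 3 runs in both treatments, so any probe set that differs between the runs in that order is like it in both, and nothing is read from these shares.

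**Figure D4:**
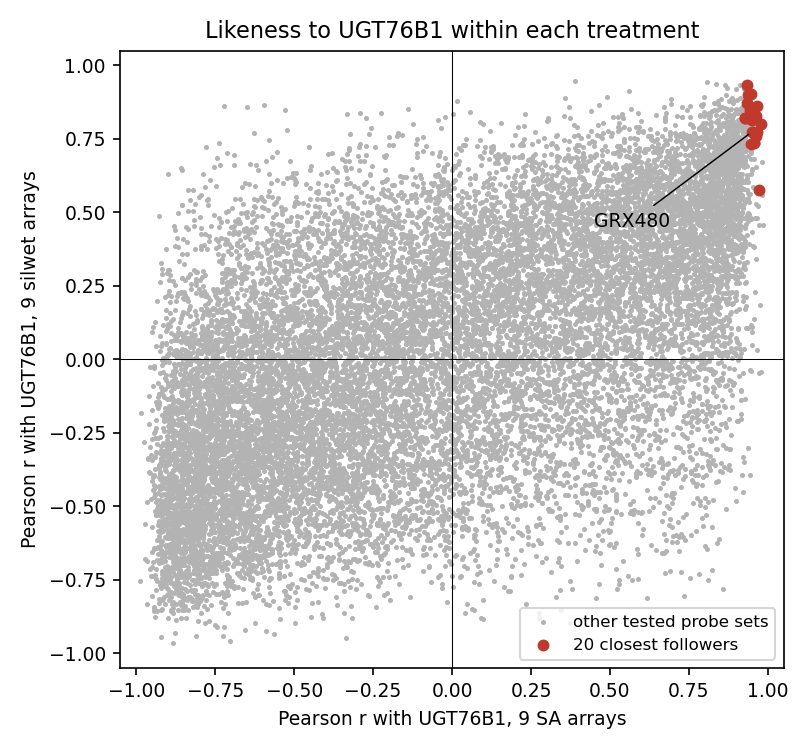
Pearson r with UGT76B1 over the 9 SA arrays (horizontal) and over the 9 silwet arrays (vertical) for each tested probe set (grey), with the 20 closest followers in red. The followers lie between 0.927 and 0.977 with SA and between 0.577 and 0.933 with silwet, in the upper right corner.

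Outside the 20 followers, WRKY53, a transcription factor of leaf senescence and defence, also had a high r with UGT76B1, 0.887, as did AT3G13610, the F6'H1 enzyme of scopoletin synthesis. AT3G13610 had the largest difference of a named gene after UGT76B1 in pair 1, 1.96, followed by AT4G01870 with 1.85, AT1G08050 with 1.79 and IAGLU, a glucosyltransferase of the auxin indole-3-acetate, with 1.77. IAGLU parted from UGT76B1 in the silwet arrays: its r was 0.945 over the 9 SA arrays and -0.04 over the 9 silwet arrays, where AT3G13610 had 0.716.

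The named genes that ran most opposite to UGT76B1 were AT1G22570 (r = -0.922), AT2G39750, AT5G62350, AT5G14970, AT1G13930 and AT5G15050, with r between -0.922 and -0.892. AT1G22570 had levels of 6.58 ± 0.18, 8.13 ± 0.02 and 8.24 ± 0.19 in the SA groups of pairs 1, 2 and 3, against 7.48 ± 0.20, 7.89 ± 0.03 and 8.16 ± 0.02 in the silwet groups. It was lowest in SA titles 46 to 48 and next lowest in silwet titles 37 to 39, and the other 4 group means did not follow the reverse order of UGT76B1 throughout. AT5G15050 is annotated as GlcAT14B, a glucuronosyltransferase of arabinogalactan proteins.

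Deviations within groups picked out other genes. The named probe sets with the highest r of deviations from the 6 group means were GEK1 (0.901), a gene of ethanol tolerance, AT4G12760 (0.868), AT5G16950 (0.848), AT3G51530 (0.847) and AT5G10695 (0.834), and none was among the 20 followers. Only AT5G10695 also followed UGT76B1 over all 18 arrays, with an r of 0.882. UGT76B1 itself lay farthest from its group mean on silwet titles 41 and 40, at 5.32 and 7.43 around a mean of 6.47.

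The other measured genes of salicylic acid conjugation gave no call. Of 13 listed loci, 5 are named on the array, and apart from UGT76B1 only WES1 and BSMT1 were bright enough to be tested. Of these, 0 rose and 0 fell in any pair. Among all tested probe sets 1.58% rose and 1.45% fell in pair 1, and 0% in pairs 2 and 3, so nothing is read from these counts. UGT74F1, which also glucosylates salicylic acid, and UGT71C3, which acts on its methyl ester, had mean levels of 4.11 and 4.42 and were left out as dim. WES1 (GH3.5), which joins amino acids to auxin and salicylic acid, had levels of 7.67, 6.63 and 6.46 in SA titles 46, 47 and 48, against 6.38, 6.09 and 5.93 in silwet titles 37, 38 and 39. The groups did not overlap, but the difference of 0.79 (standard error 0.29) did not pass (limma adjusted p = 0.166).

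BSMT1, which makes the volatile methyl ester of salicylic acid, had an r of -0.622 with UGT76B1, in place 15211 of 17058 from the highest. The r was -0.312 without SA titles 46 to 48 and -0.008 for deviations from the group means. Its levels were 4.48, 4.55 and 4.28 in SA titles 46, 47 and 48, against 4.30, 5.29 and 4.45 in silwet titles 37, 38 and 39, all dim. In pair 2 it had 6.17, 6.78 and 7.39 with SA against 6.62, 6.44 and 6.74 with silwet, and in pair 3 6.17, 7.15 and 5.88 with SA against 5.34, 6.16 and 5.05 with silwet. The difference of 0.89 in pair 3 was among the 5 largest of named genes there and did not pass (limma adjusted p = 0.710). Of the 6 arrays of pair 1, the brightest for UGT76B1, 5 lay below all other arrays for BSMT1, and silwet title 38 overlapped them.

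Of 3 loci of N-hydroxypipecolic acid synthesis 1 is named on the array, AT5G52810, and it rose in pair 1, as did 1.58% of all tested probe sets. Its levels were 9.30, 9.49 and 9.51 in SA titles 46, 47 and 48, against 7.98, 7.83 and 8.25 in silwet titles 37, 38 and 39, differing by 1.41 (standard error 0.25, limma adjusted p = 0.00600). In pair 2 it had 7.39, 6.75 and 7.86 with SA against 8.48, 8.16 and 8.23 with silwet, so the SA arrays were lower without overlap, and the difference of -0.96 did not pass (limma adjusted p = 0.360). The difference of UGT76B1 in that pair was 0.65, with a standard error of 0.69 from its own arrays and overlapping groups. No contrast between the 2 genes is read from it. AT5G52810 and UGT76B1 had an r of 0.721 over 18 arrays, 0.841 in the SA arrays and 0.06 in the silwet arrays.

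Of 18 loci of salicylic acid perception and signalling, 3 are named on the array, of which 2 rose in pair 1, GRX480 and WRKY53. Among all tested probe sets 1.58% rose there. GRX480 is also one of the followers, chosen by likeness to a gene high in those arrays. With so few genes, nothing is read from this count. The median difference over the 3 was 1.28, where the median of all tested probe sets was -0.05. GRX480 had levels of 9.86, 9.64 and 9.42 in SA titles 46, 47 and 48, against 8.73, 8.01 and 8.35 in silwet titles 37, 38 and 39, differing by 1.28 (standard error 0.23, limma adjusted p = 0.00691). WRKY53 had 9.77, 9.72 and 9.76 in the same SA arrays, against 8.77, 7.84 and 8.17 in the same silwet arrays, differing by 1.49 (standard error 0.29, limma adjusted p = 0.0114). SAG101, a partner of EDS1 in immune signalling, differed by 0.48 (standard error 0.21) and did not pass (limma adjusted p = 0.243). All 3 were lower with SA in pairs 2 and 3, with medians of -0.46 and -0.25, and 0 passed there, beside 0% of all tested probe sets. The calls of GRX480, WRKY53 and AT5G52810 were lost without replicate number 2 (limma adjusted p = 0.372, 0.220 and 0.122) and without number 3 (0.113, 0.264 and 0.0847), where their differences remained between 1.10 and 1.49. Of the loci of salicylic acid synthesis (8) and hydroxylation (2), 0 are named on the array, and they are not analysed here.

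Of the genes whose symbol starts with UGT, not all of them glucosyltransferases, 47 are measured and 33 were tested. Of the 32 besides UGT76B1, 0 rose and 1 fell in pair 1, beside 1.58% and 1.45% of all tested, and 0 passed in pairs 2 and 3, beside 0%. With the replicate block 3 rose and 2 fell in pair 1, beside 3.28% and 3.45% of all tested, and again 0 passed in pairs 2 and 3. Their median difference in pair 1 was -0.01. UGT78D1, a rhamnosyltransferase of flavonols, was the one that fell. Its levels were 5.46, 5.12 and 5.79 in SA titles 46, 47 and 48, against 6.06, 6.94 and 6.73 in silwet titles 37, 38 and 39, a difference of -1.12 (limma adjusted p = 0.0260). The call was lost without replicate number 2 (adjusted p = 0.734) and without number 3 (adjusted p = 0.178).

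Among the genes whose symbol starts with UGT, UGT73D1 had the largest positive difference in pair 1 after UGT76B1. The glucosyltransferase IAGLU, whose symbol keeps it out of this list, had a larger one, 1.77. UGT73D1 had 6.73, 8.17 and 7.71 in SA titles 46, 47 and 48, against 6.28, 5.36 and 7.11 in silwet titles 37, 38 and 39. These groups overlapped, and its difference of 1.29 (standard error 0.38) did not pass (limma adjusted p = 0.0733), though it passed with the replicate block (limma adjusted p = 0.0332). Its r with UGT76B1, 0.859, was the highest among the tested genes whose symbol starts with UGT. UGT71B6, which glucosylates abscisic acid, UGT73B5 and UGT73B4 had differences of 0.73, 0.70 and 0.63 and UGT85A4 one of -0.69, and none of these passed (limma adjusted p from 0.0525 to 0.107). With the replicate block UGT73B4 (limma adjusted p = 0.0492) and UGT85A4 (0.0144) passed, as did UGT71C5 (0.0343), whose difference was 0.60. In the UGT76 group itself, UGT76C1 and UGT76C2, which glucosylate cytokinins, UGT76D1, UGT76E11 and UGT76E12 had differences between -0.43 and 0.11 in pair 1 and 0 of the 5 passed, with the block or without, while UGT76E1 and UGT76E2 were left out as dim. The test of the difference between UGT76B1 and these relatives was not run.

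**Figure D5:**
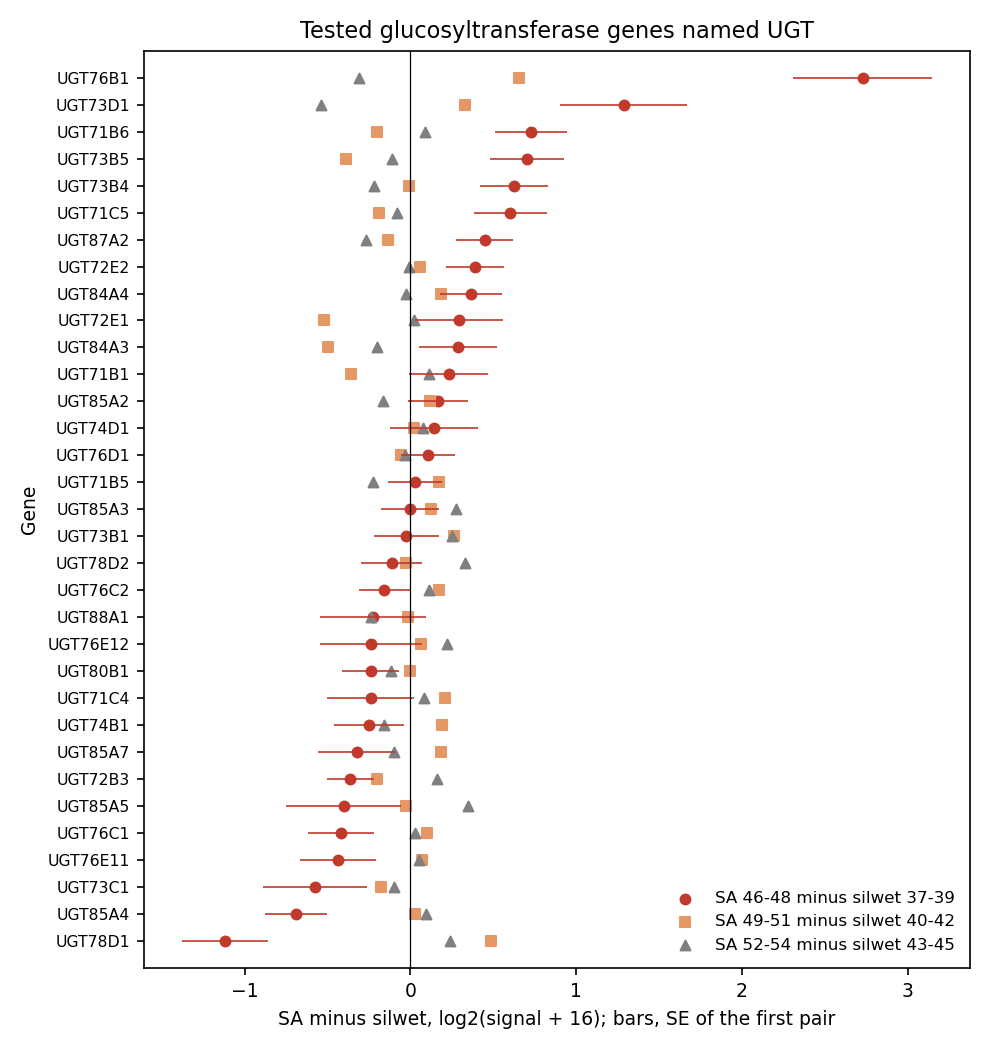
Difference SA minus silwet on the log2(signal + 16) scale for the 33 tested genes whose symbol starts with UGT, in pair 1 (red circles, with the standard error of limma), pair 2 (orange squares) and pair 3 (grey triangles). UGT76B1 stands at 2.73 in pair 1, UGT73D1 next at 1.29, and UGT78D1 lowest at -1.12.

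The genes of branched-chain amino acid metabolism, the source of the carbon skeleton of isoleucic acid, gave no call without the replicate block. Of 10 loci of synthesis 5 were tested and of 8 of breakdown 4, and 0 rose and 0 fell in each pair. Among all tested probe sets 1.58% rose and 1.45% fell in pair 1, and 0% in pairs 2 and 3. With so few genes, nothing is read from these counts. The median differences of synthesis and breakdown in pair 1 were -0.14 and -0.19, beside -0.05 over all tested probe sets. The largest was that of BCAT4, an aminotransferase known mainly from the chain elongation of methionine for glucosinolates, at -0.87 (standard error 0.24, limma adjusted p = 0.0584). With the block BCAT4 passed (limma adjusted p = 0.0418), the 1 member of the 9 that did, beside 6.72% of all tested probe sets. IVD, which acts in leucine breakdown, had a difference of 0.41 (limma adjusted p = 0.399).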

How the data were processed

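The members and the gene lists were chosen with earlier results of these data known. The deposited table holds 1 intensity value per probe set and array, on a linear scale. MAS5 made them according to the submitters' processing notes, with version and settings not given in the sources used here. All arrays were already scaled to one trimmed mean, so a change in total RNA would not be seen. No 2 arrays held identical values. After 64 control probe sets were left out, those with a mean under the 25th percentile were not tested, which left 17059. Levels are log2(signal + 16), where the offset understates changes of dim probe sets. limma 3.58.1 in R 4.3.3 fitted 6 groups (treatment and run of titles, 18 arrays) with a variance trend and Benjamini-Hochberg adjustment over all tested probe sets. It was also run on simulated levels of 17059 probe sets, with independent normal noise of each probe set's residual SD and changes in pair 1 only. In pair 1 it called 71 of 100 changed by 1 and 97 of 100 changed by 2 on the log2 scale, and 7 of 16859 unchanged. In pairs 2 and 3 it called 0 and 1 of 17059. The simulated arrays shared no deviations by replicate number, unlike some real arrays, so these rates may not hold for the real data. Arrays of the same replicate number deviated together from their group means in pair 1 (3 correlations, 0.16 to 0.48) and pair 3 (0.45 to 0.61) and not throughout in pair 2 (-0.09 to 0.34), while other numbers gave 4 of 18 over 0.1. The labels do not say what a replicate number marks. The order of the second number in the titles goes with this pairing, as do these correlations in pairs 1 and 3. Values with the replicate number as a block stand beside those it changed. Names come from the platform annotation, updated to TAIR10.1 through gene identifiers: 13513 probe sets have 1 gene, 13436 of them with a locus, and of those tested 9497 have 1 gene and 7562 several or none. Named genes were the 20 highest and, of those named, 6 lowest r, the 5 highest r of deviations, the 5 largest rises of each pair, measured members of the salicylic acid lists, up to 3 called members of other lists and up to 6 UGT genes. Precision is limited by how few arrays a group has. Figures were drawn in Python 3.11.15 with matplotlib 3.10.9.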

Additional observations from a re-analysis of the deposited data

Results flagged for a closer look

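For 4 of the 51 tested list members besides UGT76B1 the difference between SA and silwet varied between the 3 pairs in limma's interaction test, beside 2.5% of all tested probe sets. Genes picked only by their r or their difference are not counted here, since the same arrays chose them, although some of them passed too. GRX480 and BSMT1 are counted as list members, although GRX480 is also one of the 20 followers and BSMT1 one of the 5 largest rises of pair 3. Likeness to UGT76B1 favours a difference in pair 1 alone, so nothing is read from the p of GRX480. The adjusted p was 0.00429 for AT5G52810, with differences of 1.41, -0.96 and -0.35 in pairs 1, 2 and 3. It was 0.0144 for GRX480 (1.28, -0.50 and -0.16), 0.0227 for WRKY53 (1.49, -0.46 and -0.34) and 0.0377 for UGT78D1 (-1.12, 0.49 and 0.24). No such p is given for UGT76B1, since it was chosen for its levels in these arrays.

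Among 104 groups of 9 arrays, 9 held an array set apart from the rest of its group, by Dixon's critical value, which is set so that chance gives about 1 in 20. With SA, title 46 read 7.67 for WES1 (next 6.63), title 47 read 6.83 for UGT85A2 (next 6.34) and 6.19 for UGT73C1 (next 4.997). SA title 52 was low for 2 genes of branched-chain amino acid synthesis, at 9.68 for AT3G58610 (next 10.55) and 6.36 for AT3G23940 (next 7.88). With silwet, title 41 read 4.91 for UGT76C1 (next 5.27), 8.41 for UGT72E1 (next 7.88) and 4.28 for UGT85A3 (next 4.59), and title 38 read 5.67 for UGT73B1 (next 5.28). In titles 41, 43, 49 and 52 the second number carries a letter, whose meaning the labels do not give. Titles 41 and 52 are among the arrays set apart here, and titles 43 and 49 are not.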

How the results depend on the processing

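Each alternative run left UGT76B1 higher with SA in pair 1. Its difference there was 2.51 at an offset of 64 and ran from 2.60 to 2.96 when 1 replicate number was left out. In pair 2 these ran from 0.11 to 1.38 and in pair 3 from -0.75 to 0.02. With the replicate block 1147 probe sets were called in pair 1 and 0 in the others, and with a replicate block within pairs, added after seeing the data, 1216, 8 and 0. Beside the calls given with their results, the latter block added a rise of UGT73B5 (limma adjusted p = 0.0317) and a fall of UGT73C1 (0.0462), and neither block changed another call of a listed gene within a pair. Without 1 replicate number pair 1 had 3 to 797 calls, with 2 arrays a group. In pair 2 1 probe set was called at an offset of 1. Of the 20 followers, 7 to 12 remained among the 20 highest without 1 replicate number, 7 by Spearman's correlation and 0 by deviations from group means. Among the settings chosen after seeing the data, 6 remained without titles 46 to 48, 5 in the SA arrays alone and 3 in the silwet arrays alone. The cause of these changes was not tested. Dim readings of UGT76B1 limit pairs 2 and 3.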

Other observations

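The largest differences of named genes in pair 2 belonged to AT1G62500 (1.34), AT1G10640 (1.21), AT2G28790 (1.10), scpl50, a serine carboxypeptidase-like gene (1.10), and AT1G09750 (1.03), and none passed in limma. All 5 had an r with UGT76B1 below 0, from -0.58 to -0.29. In pair 3 they belonged to AT1G30700 (0.99), SAG29, the sugar transporter gene SWEET15 (0.95), BSMT1 (0.89), AT5G01015 (0.82) and AT2G21530 (0.81), and none passed. These too had an r below 0, from -0.83 to -0.40.

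Of the 5 protein-coding neighbours on either side of UGT76B1 in the gene table, only AT3G11320 was both named on the array and tested, with differences of 0.12, -0.13 and -0.07 in the 3 pairs and an r of 0.10.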
